A study of Mus musculus with 4 samples.

Results

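The regions described here are the 500 densest clusters of accessible chromatin in wild type (WT) mouse embryonic stem cells at day 0. Neighbouring peaks of the WT day 0 library on the 19 autosomes were joined where the gap between them was 3000 bp or less. This gave 109174 clusters, which were ranked by their summed peak length, with ties broken by span, and the first 500 were kept. They held 4999 peaks, which is 2.57% of the autosomal peaks of that library and 2.53% of its covered bp. The clusters were thus selected on the covered bp of WT day 0, and every value of that library, and every comparison that uses it, is given as a description.

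The study assayed nuclei of blastocyst-derived embryonic stem cells with single-nucleus ATAC-seq, an assay whose transposase inserts into open DNA. The 4 groups held 1 library each, and the values used are the peaks that were called in each library. The KO day 5 group carried the knockout labelled Cdc14ab, which names the genes of the phosphatases Cdc14a and Cdc14b, and had spent 5 days in N2B27, a neural differentiation medium, with EGF and FGF2. The WT day 5 group had the same medium for the same time. The KO day 0 group carried the same knockout and was kept in medium with LIF, the cytokine that maintains pluripotency. The WT day 0 group was kept in that LIF medium. All groups were grown over feeder cells and then on gelatin at low density to remove the feeders, and all carry the clone number 3. With 1 clone number per genotype, a difference between lines and an effect of the knockout cannot be told apart. No replicate is given for any group, so every comparison below sets one library against another, without a test.

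The libraries listed 227878 peaks in KO day 5, 189571 in WT day 5, 222257 in KO day 0 and 198860 in WT day 0. Their median widths lay between 873 and 882 bp. Read depth is unknown from these lists, and fewer open nuclei and a weaker signal per nucleus cannot be told apart. The WT day 5 library had 1 peak at each of the Y-linked genes Eif2s3y, Uty and Ddx3y, which the KO day 5, KO day 0 and WT day 0 libraries lacked. Every library had some peaks on chromosome Y, 14 in KO day 5, 20 in WT day 5, 16 in KO day 0 and 16 in WT day 0. Peaks on chromosome X numbered 6659, 4112, 5565 and 4273 in the same order, more in both KO libraries. The cause was not tested. The clusters are all autosomal, and the comparison of KO day 5 with KO day 0 does not use the WT day 5 library. The knocked-out genes cannot be checked by peak presence, since Cdc14a had 26 peaks in KO day 5, 15 in WT day 5, 30 in KO day 0 and 18 in WT day 0, and Cdc14b had 13, 12, 14 and 9 in the same order of libraries. All 8 stem cell markers, all 6 neural progenitor markers and all 7 fibroblast markers of the feeder cells had at least 1 peak in every library. All 4 primitive endoderm markers had one too, except that Sox7 had 0 in WT day 0. Stem cell markers summed to 59 peaks in KO day 5, 48 in WT day 5, 66 in KO day 0 and 61 in WT day 0, and primitive endoderm markers to 29, 19, 25 and 23 in the same order. Neural progenitor markers summed to 25, 27, 25 and 26 and fibroblast markers to 23, 26, 31 and 24. The part of these cell types in the results was not tested.

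Stretches in which many open elements lie close together are found at long-range enhancers that act in concert, often called stretch enhancers or super-enhancers, and at gene-dense loci where the promoters of several genes crowd together. In embryonic stem cells the transcription factors Oct4, Sox2 and Nanog bind many such enhancers. CpG-rich promoters of developmental regulators are open in these cells while carrying the marks of both Polycomb and Trithorax complexes, a state known as bivalent. Genes for transfer RNAs and replication-dependent histones occur in tandem groups and are read in dividing cells, the tRNA genes by RNA polymerase III.

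Ltbp4 and Unc13a lie in clusters at the head of the ranking, and Aebp2 is the first Polycomb gene. They come from a longer set of promoters fixed by rank, whose coverage is given below. Sox2, chosen after its values were seen, is the core pluripotency factor whose start lies in a cluster. The promoters of these 4 genes are shown. Each runs 5′ to 3′ over 250 bases before and 50 after the RefSeq start (GRCm38.p6, whose coordinates are those of mm10), with the GC box motif GGGCGG, searched on both strands, in capitals.
Ltbp4, chr7:27333599-27333898, minus strand: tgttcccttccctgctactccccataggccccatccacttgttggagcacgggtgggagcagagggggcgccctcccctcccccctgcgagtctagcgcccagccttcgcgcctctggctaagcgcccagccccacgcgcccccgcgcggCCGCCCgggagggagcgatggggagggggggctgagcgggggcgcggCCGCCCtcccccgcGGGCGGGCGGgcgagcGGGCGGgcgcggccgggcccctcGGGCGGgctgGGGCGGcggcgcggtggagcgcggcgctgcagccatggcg
Unc13a, chr8:71671708-71672007, minus strand: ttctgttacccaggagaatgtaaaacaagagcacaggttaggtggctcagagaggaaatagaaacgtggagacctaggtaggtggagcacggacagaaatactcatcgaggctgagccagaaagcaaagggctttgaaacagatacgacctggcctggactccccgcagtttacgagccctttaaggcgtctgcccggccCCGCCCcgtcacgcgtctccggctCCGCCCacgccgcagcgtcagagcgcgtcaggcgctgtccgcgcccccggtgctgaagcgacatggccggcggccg
Aebp2, chr6:140622413-140622712, plus strand: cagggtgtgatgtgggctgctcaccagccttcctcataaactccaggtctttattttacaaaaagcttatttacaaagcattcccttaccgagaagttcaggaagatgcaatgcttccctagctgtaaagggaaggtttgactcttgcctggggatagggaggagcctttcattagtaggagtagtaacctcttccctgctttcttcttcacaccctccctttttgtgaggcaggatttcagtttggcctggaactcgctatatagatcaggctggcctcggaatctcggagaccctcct
Sox2, chr3:34649745-34650044, plus strand: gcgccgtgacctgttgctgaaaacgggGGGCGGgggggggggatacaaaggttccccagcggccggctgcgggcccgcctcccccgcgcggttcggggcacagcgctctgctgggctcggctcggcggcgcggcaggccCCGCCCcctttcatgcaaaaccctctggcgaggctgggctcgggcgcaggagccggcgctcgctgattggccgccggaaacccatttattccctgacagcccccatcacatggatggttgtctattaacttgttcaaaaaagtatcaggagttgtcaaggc

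The window at this annotated Ltbp4 start is 80.3% G and C with 39 CpG pairs, and peaks covered all 300 bases in KO day 5 and WT day 5 but 0 bases in KO day 0 and WT day 0. The Aebp2 promoter is 48% G and C with 4 CpG pairs, and was covered whole in KO day 5, KO day 0 and WT day 0 and not at all in WT day 5. The Sox2 promoter is 66.3% G and C with 27 CpG pairs, and peaks covered it whole in all 4 libraries. The Unc13a promoter was also covered whole in all 4. The same held for Shkbp1, Lix1, Tbc1d7 and Gipc3, which belong to the set fixed by rank and are not shown. Tnfsfm13, the last of that set, had 157 bases covered in KO day 5, 180 in WT day 5, 122 in KO day 0 and 31 in WT day 0. The Aebp2 window holds no GC box, which says only that these letters are not in it.

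The clusters also contain annotated microRNA genes, whose mature products silence messenger RNAs through the seed, bases 2 to 8, shown in capitals. Of 1581 mature autosomal miRNAs in the RefSeq table, 33 lay in 18 clusters, and their 33 seeds were all different. A few well-known ones are shown with the cluster that holds them.
miR-219a-5p, chr17:34025052-34025072, minus strand, in the Ring1 cluster: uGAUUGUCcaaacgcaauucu
miR-142a-3p, chr11:87756903-87756925, plus strand, rank 180: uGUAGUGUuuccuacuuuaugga
miR-142a-5p, chr11:87756867-87756887, plus strand, rank 180: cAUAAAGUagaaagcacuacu
miR-330-3p, chr7:19181525-19181547, plus strand, rank 126: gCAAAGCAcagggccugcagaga
miR-499-5p, chr2:155622893-155622913, plus strand, rank 368: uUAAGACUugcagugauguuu
miR-1897-3p, chr3:34638511-34638532, plus strand, in the Sox2 cluster: uCAACUCGuucuguccggugag

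miR-142a, known from blood cells, lay in a cluster with 5597 bp in KO day 5, 5279 bp in WT day 5, 5416 bp in KO day 0 and 8496 bp in WT day 0. The 3 libraries that did not choose it were thus alike in unscaled bp. The miR-219a cluster, named for a miRNA of oligodendrocyte maturation, held 6938 bp in KO day 5, 6074 bp in WT day 5, 6853 bp in KO day 0 and 7857 bp in WT day 0. These values are accessible bp at the locus and say nothing of the miRNA's level.

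A cluster held 8 to 21 peaks with a median of 10, and spanned 12329 to 44146 bp with a median of 19048 bp. Summed peak length lay between 6837 and 17733 bp with a median of 7925 bp, so that peaks covered a median of 41.9% of the span. The clusters were dense through the number and spacing of their peaks: the median peak in them was 859 bp wide, against 874 bp for the other peaks of the library, and the median gap was 1144 bp. Together they spanned 9.96 Mb, or 0.405% of the autosomes. The last 3 clusters inside the limit held 6841, 6841 and 6837 bp and the first 3 outside it held 6834, 6832 and 6828 bp, so the limit of 500 falls in a continuous series. Chromosome 11 held 57 clusters, which is 11.4% of them against 7.31% of WT day 0 peaks. In all, 56 clusters lay within 50 kb of another, and the closest pair was 3392 bp apart.

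**Figure D1:**
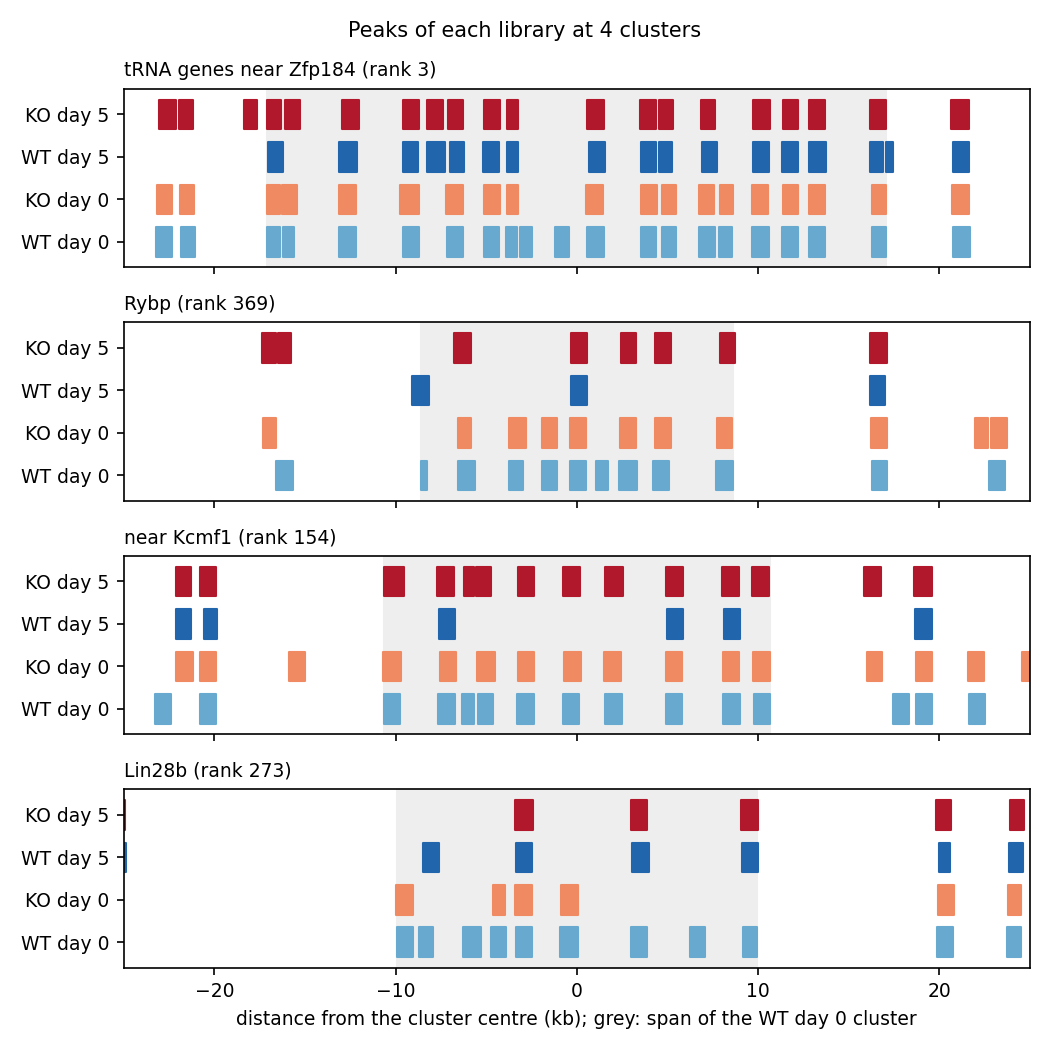
Peaks of the 4 libraries at 4 clusters, drawn as boxes against the distance in kb from the cluster centre, with KO day 5 at the top and WT day 0 at the bottom of each panel and the WT day 0 span in grey. The tRNA gene cluster at rank 3 holds 16 peaks in each of KO day 5, WT day 5 and KO day 0 and 18 in WT day 0, while the cluster near Kcmf1 holds 10 peaks in KO day 5 and 3 in WT day 5.

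The first clusters in rank lay at genes of many functions. Rank 1 (chromosome 7, 27301937 to 27346082) covered Ltbp4, which encodes a matrix protein that binds latent TGF-beta, and part of Shkbp1. It had the most peaks and the longest span, and held 16747 bp in KO day 5, 14335 bp in WT day 5, 17288 bp in KO day 0 and 17733 bp in WT day 0. Rank 4 was its neighbour on Shkbp1 and Sptbn4, a spectrin of neuronal axons, with 11919 bp in KO day 5, 10313 bp in WT day 5, 14542 bp in KO day 0 and 14365 bp in WT day 0. In both neighbours WT day 5 was the lowest library in bp not scaled for library totals, which held for most clusters, as counted below.

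Rank 2 contained no protein-coding gene and lay 20427 bp from the alpha-tubulin gene Tuba1c, with 15334 bp in WT day 0. Rank 5 held Unc13a, a synaptic vesicle priming gene, together with the kinase gene Jak3, the hormone gene Insl3 and the glycosyltransferase gene B3gnt3. Its covered bp were 11678 in KO day 5, 8925 in WT day 5, 11923 in KO day 0 and 14195 in WT day 0. Rank 6 lay 111 bp from Deptor, an inhibitor of mTOR signalling, with 10294 bp in KO day 5, 9009 bp in WT day 5, 14688 bp in KO day 0 and 14027 bp in WT day 0, so both day 0 libraries were above both day 5 libraries.

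Rank 7, at the kinase gene Riok2 and at Lix1, split in the same way, with 7159 bp in KO day 5, 8631 bp in WT day 5, 13420 bp in KO day 0 and 13616 bp in WT day 0. Rank 8 covered 21 protein-coding gene models, among them gamma-protocadherins, adhesion proteins that give neurons their identity. That was the most genes of any cluster, and many of these models overlap each other. It held 13258 bp in KO day 5, 14103 bp in WT day 5, 12112 bp in KO day 0 and 13465 bp in WT day 0, and WT day 5 was the highest library. Ranks 9 to 14 lay at Tbc1d7 and Gfod1, near Gtf3a, at Kif14 and at Plec, at Tnfsfm13 and Tnfsf12, and near Etnk1. Gtf3a encodes a factor of 5S RNA transcription, Kif14 a kinesin of cell division and Plec the cytolinker plectin. Rank 13, at Tnfsfm13, was highest in KO day 5, with 14448 bp, against 10406 bp in WT day 5, 10599 bp in KO day 0 and 12353 bp in WT day 0.

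Of the 500 clusters, 385 overlapped at least 1 protein-coding gene and 115 overlapped none. Those without a gene lay a median of 11572 bp from the nearest one, and 14 of them lay over 50 kb away. A single gene was overlapped by 261 clusters, 45 overlapped at least 3 genes, and 102 lay wholly inside 1 gene. The clusters overlapped 582 of 20665 autosomal protein-coding genes, which is 2.82%. Gene length was not held constant in this share, and a long gene is overlapped more easily than a short one.

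RefSeq starts lay in 263 clusters. The 488 promoter windows inside clusters had a median G and C content of 58.3% and 15 CpG pairs, against 58.7% and 16 in other WT day 0 clusters of at least 3 peaks and 53% and 7 over all 31396 autosomal promoter windows. The GC box GGGCGG, on either strand, was in 51.6% of the windows inside the densest clusters, in 52.9% of those inside other clusters of at least 3 peaks and in 36.0% of all windows. The motif CCAAT, on either strand, was in 38.3%, 34.3% and 37.3% of the same sets of windows. The promoters inside the densest clusters were thus close in CpG content to those of other clusters of at least 3 peaks.

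Among regulators of pluripotency, 2 of 12 core genes overlapped a cluster, Sox2 and Sall4, transcription factors that maintain the stem cell state. The Sox2 cluster, rank 157 (chromosome 3, 34636684 to 34657788), held 8758 bp in KO day 5, 7621 bp in WT day 5, 9403 bp in KO day 0 and 8662 bp in WT day 0. Sox2 is also expressed in neural progenitors. WT day 5 was the lowest library there in unscaled bp only: scaled by total bp, the log2 ratio of KO to WT at day 5 was −0.08. The Sall4 cluster, rank 85 (chromosome 2, 168760874 to 168783757), held 8104 bp in KO day 5, 4275 bp in WT day 5, 8951 bp in KO day 0 and 9456 bp in WT day 0. WT day 5 alone was low at Sall4.

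None of 12 naive pluripotency genes overlapped a cluster, although 2 of them lay within 100 kb of one, among them Fgf4 at 22.1 kb from the cluster at Fgf15. Of 12 genes of the formative state that follows, only Lef1, a Wnt pathway transcription factor, overlapped one (rank 208), with 4263 bp in KO day 5, 4774 bp in WT day 5, 5721 bp in KO day 0 and 8242 bp in WT day 0. Dnmt3b, a de novo DNA methyltransferase, lay 36.0 kb from rank 73. None of 10 DNA methylation genes overlapped a cluster.

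Among neural and developmental regulators, 2 of 19 neural progenitor genes overlapped a cluster, Pax6 (rank 468), an eye and forebrain factor, and Hes1 (rank 385), a Notch target that holds progenitors undifferentiated. Hes1 held 6946 bp in KO day 5, 6501 bp in WT day 5, 8058 bp in KO day 0 and 7226 bp in WT day 0. None of 14 neuron genes did so. Of 39 Hox genes, Hoxb7, Hoxb8 and Hoxb9 shared the cluster at rank 171 (chromosome 11, 96269646 to 96287459). It held 7310 bp in KO day 5, 7587 bp in WT day 5, 7550 bp in KO day 0 and 8541 bp in WT day 0. Scaled by total bp, the log2 ratio of KO to WT at day 5 was −0.32 there.

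Of 70 other homeobox, T-box, forkhead and GATA regulators, 7 overlapped a cluster: En2, Msx1, Gata3, Pax5, Dlx3, Gbx2 and Pax6. En2 (rank 34), a midbrain and hindbrain factor, held 10675 bp in KO day 5, 8716 bp in WT day 5, 10574 bp in KO day 0 and 10471 bp in WT day 0. Gata3 (rank 185), a factor of trophoblast and T cells, held 6577 bp in KO day 5, 7804 bp in WT day 5, 8527 bp in KO day 0 and 8452 bp in WT day 0.

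Polycomb complexes, which silence developmental genes, and Trithorax complexes, which oppose them, contributed 5 of 29 genes. These were Aebp2 (rank 15), a cofactor of Polycomb repressive complex 2, Kmt2b (rank 35), the methyltransferase of bivalent promoters, Cbx7 (rank 230), a reader of the Polycomb mark, Ring1 (rank 266), a ubiquitin ligase of Polycomb repressive complex 1, and Kdm6b (rank 499), a demethylase of the Polycomb mark. Aebp2 shared its cluster with Plekha5 and held 9958 bp in KO day 5, 6892 bp in WT day 5, 11352 bp in KO day 0 and 11865 bp in WT day 0. Kmt2b held 9491 bp in KO day 5, 7520 bp in WT day 5, 9428 bp in KO day 0 and 10429 bp in WT day 0. Both were lowest in WT day 5 in unscaled bp, as were most clusters. Scaled by total bp, the log2 ratio of KO to WT at day 5 was 0.23 at Aebp2 and 0.05 at Kmt2b.

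Signalling genes overlapped in 4 of 54 cases: Lef1, Fgf15, Hes1 and Lifr, the receptor subunit for LIF. Lifr (rank 421) held 6250 bp in KO day 5, 3702 bp in WT day 5, 6862 bp in KO day 0 and 7088 bp in WT day 0. The gene of the ligand, Lif, is not on the list and was picked after its values were seen; it lay in rank 167, with 6912 bp in KO day 5, 6262 bp in WT day 5, 7876 bp in KO day 0 and 8574 bp in WT day 0. In unscaled bp WT day 5 was the lowest library at both. Among the 3 libraries that did not choose the clusters, it was the lowest in 395 of the 500, a count not made for other clusters. Scaled by total bp, KO was above WT at day 5 at Lifr (log2 ratio 0.41) and below it at Lif (−0.14).

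Ccnd3, a cyclin of the G1 phase, was the single gene of 28 in mitosis and cell cycle to overlap a cluster, and the growth inhibitor Cdkn1c the single one of 16 imprinted genes. No gene overlapped among 13 housekeeping genes, 18 fibroblast and matrix genes or 18 endoderm and mesoderm genes. Of 23 genes named as examples of large stem cell enhancers, Sox2 and Sall4 overlapped, and 1 more, Fgf4, lay within 100 kb. Over all lists together 23 of 344 genes (6.69%) overlapped a cluster, beside 2.82% of all protein-coding genes, and 16% lay within 100 kb of one, beside 11.6%.

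**Figure D2:**
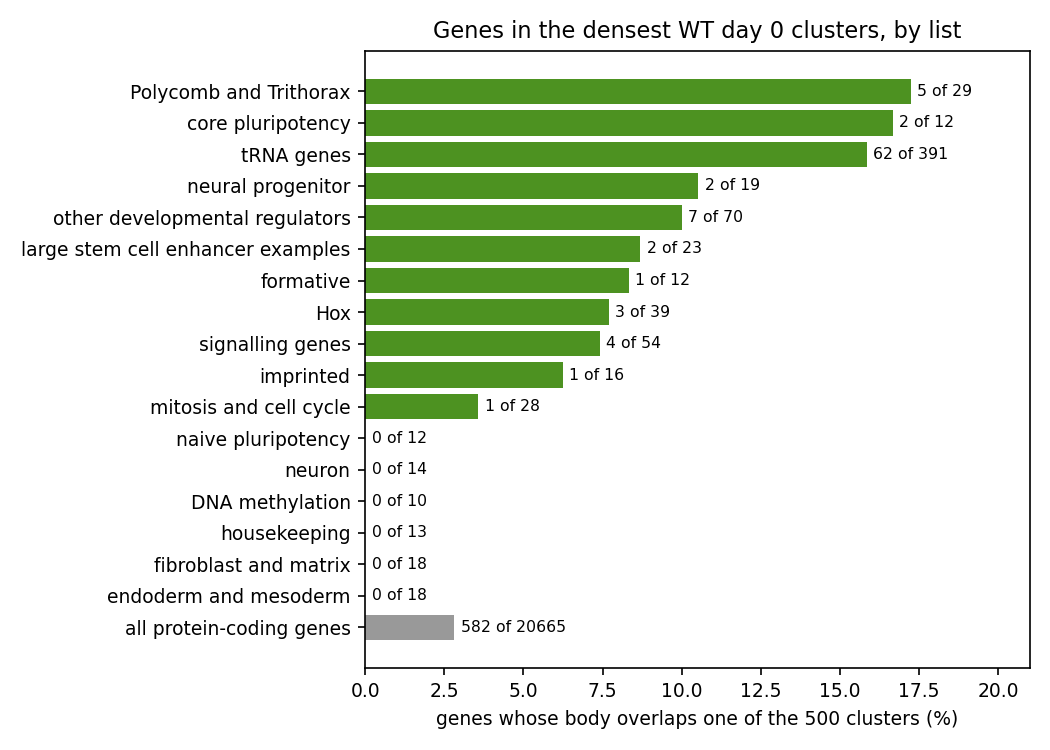
Percent of the genes in each list that overlap one of the 500 clusters, with tRNA genes as a further class and all autosomal protein-coding genes as the grey bar. The longest bars are Polycomb and Trithorax (5 of 29) and core pluripotency (2 of 12), and 6 lists have no gene in a cluster.

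Genes that are not translated were unevenly represented, a class picked after its values were seen. Of 391 autosomal tRNA genes, 62 (15.9%) lay in 10 clusters, and 8 of these clusters held at least 3 tRNA genes. The share was 1.64% for long non-coding RNA genes, 2.11% for miRNA genes and 0.439% for pseudogenes. The largest group, 15 tRNA genes near Zfp184 on chromosome 13, formed the cluster at rank 3 (21906859 to 21941006), with 13577 bp in KO day 5, 12517 bp in WT day 5, 13360 bp in KO day 0 and 14563 bp in WT day 0. tRNA genes are repeated in the genome, so reads can be split between copies and their values are uncertain.

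A peak covered 53 of the 62 tRNA genes inside clusters in KO day 5, 49 in WT day 5, 58 in KO day 0 and 56 in WT day 0. Of the 329 tRNA genes elsewhere, a peak covered 201 in KO day 5, 190 in WT day 5, 213 in KO day 0 and 212 in WT day 0. Since WT day 0 peaks define the clusters, the higher share inside them is set by the choice in that library. In both sets WT day 5 had the fewest.

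Histone genes were the other tandem family, also picked after their values were seen: 14 of 70 lay in 4 clusters. The cluster at rank 274 held 6 of them, with 5586 bp in KO day 5, 4901 bp in WT day 5, 7443 bp in KO day 0 and 7796 bp in WT day 0. The cluster at rank 139 held H4c8, H2ac10 and H3c8 beside 8 tRNA genes, with 7803 bp in KO day 5, 6564 bp in WT day 5, 8896 bp in KO day 0 and 8796 bp in WT day 0. The cluster at rank 204, with H3c15 and 3 further histone genes, held 5155 bp in KO day 5, 5894 bp in WT day 5, 8343 bp in KO day 0 and 8265 bp in WT day 0. In all 3, KO day 5 covered less than KO day 0 in unscaled bp. That was the general direction: scaled by total bp, 388 of the 500 clusters were lower at day 5 in KO. The same held for 14905 of the 19950 WT day 0 clusters of at least 3 peaks. The histone cluster at rank 104, with H3f4, went the other way, with 9479 bp in KO day 5, 7728 bp in WT day 5, 8749 bp in KO day 0 and 9180 bp in WT day 0.

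Lncenc1, a long non-coding RNA gene known from naive mouse stem cells, overlapped the clusters at rank 130 and rank 466, which lay 175201 and 224200 bp from the nearest protein-coding gene, Enc1. It too was named after its values were seen. Rank 130 held 7802 bp in KO day 5, 5271 bp in WT day 5, 8233 bp in KO day 0 and 8914 bp in WT day 0. Rank 466 held 5615 bp in KO day 5, 2481 bp in WT day 5, 6839 bp in KO day 0 and 6947 bp in WT day 0. In both, WT day 5 was the lowest library in unscaled bp, as in most clusters.

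Summed over the 500 spans, peaks covered 3.47 Mb in KO day 5, 2.87 Mb in WT day 5, 3.79 Mb in KO day 0 and 4.17 Mb in WT day 0. The median cluster held 6866 bp in KO day 5, 5719.5 bp in WT day 5, 7392.5 bp in KO day 0 and 7925 bp in WT day 0. Relative to WT day 0 the sums were 83.3% in KO day 5, 68.8% in WT day 5 and 91.0% in KO day 0. Because the clusters are the top of the WT day 0 list, the other libraries lie below it by construction. The same sums were 81.4% in KO day 5, 66.2% in WT day 5 and 89.7% in KO day 0 for the next 500 clusters in rank. Since WT day 0 bp ranked the clusters, nothing is read from this difference.

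Among the 3 libraries that did not choose the clusters, KO day 0 covered the most bp in 332 clusters, KO day 5 in 142 and WT day 5 in 26. WT day 5 covered the least in 395 clusters, KO day 5 in 66 and KO day 0 in 39. These counts were not made for other clusters, so nothing particular to the densest ones is read from them. WT day 5 had the smallest autosomal total of all the libraries. KO day 5 also covered more of the autosomes than WT day 5, with 191 Mb against 159 Mb, which is 0.27 on the log2 scale, and the order above is not scaled for that. No cluster was without a peak in any library.

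**Figure D3:**
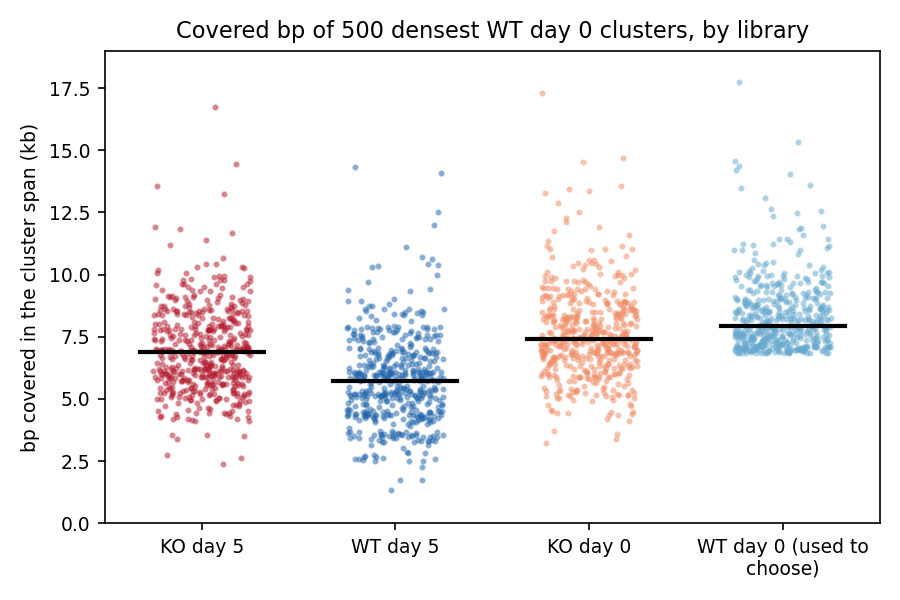
Covered bp in each of the 500 clusters in the 4 libraries (kb, points), with the median as a bar, from KO day 5 at the left to WT day 0 at the right. The medians are 6866, 5719.5, 7392.5 and 7925 bp in that order, and the floor of the WT day 0 points at 6837 bp is the limit of the rule.

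Single peaks were found again to different extents. Of the 4999 WT day 0 peaks, 78.2% (95% exact Clopper-Pearson interval 77.1 to 79.4%) overlapped a peak of KO day 5 by at least 1 bp, 66.0% (64.7 to 67.3%) one of WT day 5 and 87.0% (86.0 to 87.9%) one of KO day 0. These intervals cover counting error only, and peaks of 1 cluster are not independent. In other clusters of at least 3 peaks the shares were 75.9% in KO day 5, 63.1% in WT day 5 and 84.3% in KO day 0. In clusters of 1 or 2 peaks they were 78.7%, 64.3% and 83.6% in the same order of libraries, so the share for KO day 5 inside the densest clusters lay between those of both other classes.

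Peaks of all 3 other libraries overlapped 2949 of the 4999 peaks (59.0%). A peak of KO day 5 but none of WT day 5 overlapped 818 peaks (16.4%), and a peak of WT day 5 but none of KO day 5 overlapped 207 (4.14%). No peak of another library overlapped 341 (6.82%). In other clusters of at least 3 peaks these 4 shares were 55.5, 17.7, 4.81 and 8.47% in the same order, and in clusters of 1 or 2 peaks 56.6, 18.7, 4.36 and 7.96%, so the densest clusters lay near both. Every WT day 0 peak of a cluster was matched in KO day 5 in 56 clusters, in WT day 5 in 15 and in KO day 0 in 146. That last count was not made for other clusters.

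The outlines of the clusters differed too. With the same joining rule in each library, a single cluster met the WT day 0 span in 178 cases in KO day 5, in 107 in WT day 5 and in 263 in KO day 0. In KO day 5, 111 were spanned to within 1 kb of both ends, against 40 in WT day 5 and 204 in KO day 0. These counts were not made for other clusters, so nothing particular to the densest ones is read from them. Peaks filled little of what had been gaps: 7.13% of gap bp were covered in KO day 5, 5.41% in WT day 5 and 5.46% in KO day 0. Covered bp were concentrated over the clusters in all libraries. Within 5 kb of the cluster centre peaks covered 32.8% of bp in KO day 5, 27.3% in WT day 5, 35.8% in KO day 0 and 39.0% in WT day 0. Beyond 25 kb and up to 30 kb from the centre the shares were 17.6% in KO day 5, 14.4% in WT day 5, 19.5% in KO day 0 and 18% in WT day 0.

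**Figure D4:**
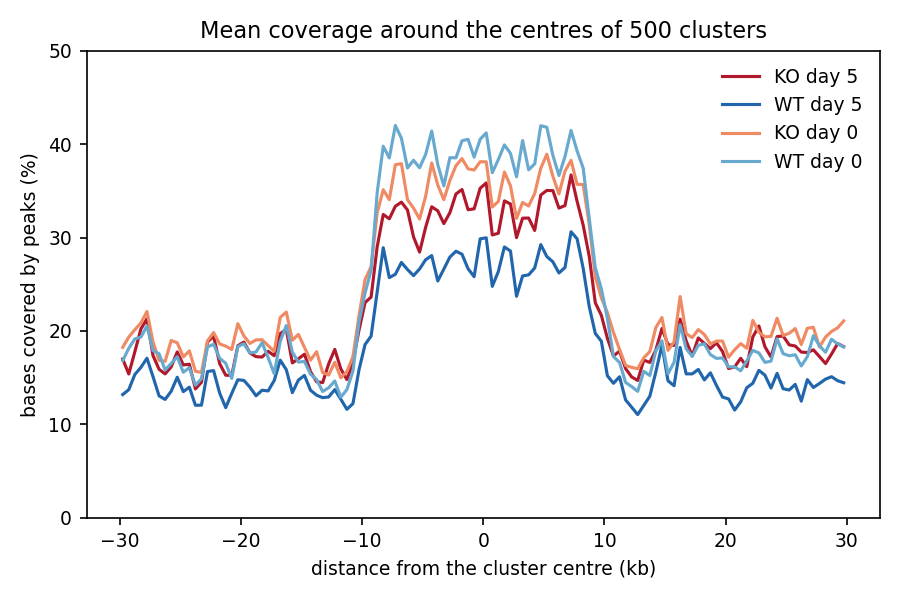
Percent of bp covered by peaks against the distance in kb from the centre of the cluster, averaged over the 500 clusters in bins of 500 bp, 1 line per library in colour. All 4 lines are higher over the middle of the clusters than beyond them, with WT day 0 highest there, as the rule sets it, and WT day 5 lowest.

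The comparison of KO with WT at day 5 asks how the stem cell clusters stood after differentiation in each genotype, and neither library chose the clusters. Each value is log2 of the ratio of covered bp, with 500 bp added to both, minus log2 of the ratio of total autosomal bp, and a cluster was called lower or higher past 0.5 on this scale. In KO, 41 clusters (8.2%) were higher and 19 (3.8%) were lower. The backgrounds over all 19950 autosomal WT day 0 clusters of at least 3 peaks were 13.8% higher and 10.2% lower. Both shares of the densest clusters were below the background, and the median was −0.05, beside −0.15 over the background. The background clusters are smaller, with a median of 2725 bp outside the top 500 against 7925 bp in it, so that 1 peak weighs more in them. The next 500 clusters in rank, which are closer in size, had 9.4% higher and 5% lower.

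The median's direction depended on the scaling: without it the median was 0.22, with 20.4% higher and 0% lower. The balance of calls turned with the equally long lists of the widest peaks of each library, which gave 7.6% higher and 10.6% lower. The median was 0.02 where gaps of up to 12.5 kb were joined. It was also 0.19 where the clusters were built from KO day 5 peaks and −0.41 where they were built from WT day 5 peaks.

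The 4 clusters with the highest values were more than 1 log2 unit up in KO. Beside them, 1035 of the 19950 background clusters and 13 of the next 500 in rank were up as far, so this is not particular to the densest clusters. Of these 4, values are given from the highest down. The first lay 57468 bp from Kctd3 on chromosome 1 (189065366 to 189082989), with 6588 bp in KO day 5, 1744 bp in WT day 5, 7010 bp in KO day 0 and 7065 bp in WT day 0, and a log2 ratio of 1.39. The cluster 10954 bp from Kcmf1 on chromosome 6 held 8886 bp in KO day 5, 2664 bp in WT day 5, 8221 bp in KO day 0 and 8673 bp in WT day 0 (1.30). In both, KO day 5 was close to the day 0 libraries and WT day 5 alone was low.

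The cluster 20757 bp from Tbc1d1 held 8010 bp in KO day 5, 2482 bp in WT day 5, 8824 bp in KO day 0 and 8130 bp in WT day 0 (1.24). Rybp (rank 369, chromosome 6, 100262359 to 100279555), a component of variant Polycomb repressive complex 1 that was not on the list above, held 4289 bp in KO day 5, 1328 bp in WT day 5, 6119 bp in KO day 0 and 7339 bp in WT day 0 (1.12). At Rybp both day 5 libraries were below both day 0 libraries, WT further than KO. The fifth and sixth highest lay near Ptk2, the focal adhesion kinase gene, at 0.91, and at Scube1, which encodes a secreted protein, at 0.86. Of the genes on the lists, Sall4 and Cbx7 were higher in KO, both at 0.58. Cbx7 held 9637 bp in KO day 5, 5144 bp in WT day 5, 8195 bp in KO day 0 and 8148 bp in WT day 0.

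No cluster was 1 log2 unit down in KO, beside 358 of the 19950 background clusters and 2 of the next 500 in rank. The lowest value was −0.63. It belonged to Tex2 on chromosome 11, with 4555 bp in KO day 5, 6008 bp in WT day 5, 5307 bp in KO day 0 and 6882 bp in WT day 0. Lin28b (chromosome 10, 45439404 to 45459251), which blocks maturation of let-7 miRNAs, was at −0.60, with 2736 bp in KO day 5, 3571 bp in WT day 5, 3404 bp in KO day 0 and 7796 bp in WT day 0. All 3 other libraries were under WT day 0 at Lin28b, but WT day 0 chose the clusters, so nothing is read from that order.

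The cluster between Commd7 and Dnmt3b held 7667 bp in KO day 5, 9698 bp in WT day 5, 8424 bp in KO day 0 and 9643 bp in WT day 0 (−0.59). KO was the lower library at day 5. At day 0 the rule set WT high, and 483 of the 500 clusters had a value below 0. Nothing is therefore read from the same order at day 0. Clusters near Btrc, a ubiquitin ligase subunit gene, and at Ccdc12 were at −0.58 and −0.57. Gata3 was called lower at −0.50, at the limit of the call. Without the scaling no cluster was called lower.

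**Figure D5:**
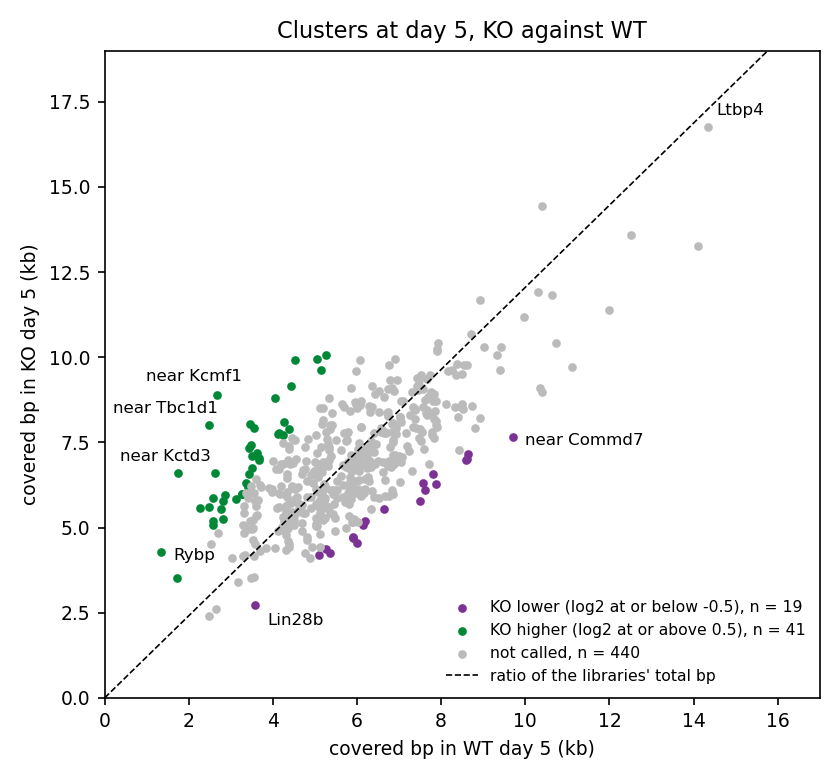
Covered bp of each of the 500 clusters in KO day 5 against WT day 5 (kb on both axes), with clusters called higher or lower in KO in colour and selected loci named. The points near Kctd3, Kcmf1 and Tbc1d1 lie at 1744 to 2664 bp in WT day 5 and at 6588 to 8886 bp in KO day 5.

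The calls were also counted by gene content. Of the 115 clusters with no protein-coding gene, 16 were higher and 5 lower in KO at day 5. Of the 340 with 1 or 2 genes, 25 were higher and 14 lower. Of the 45 with at least 3 genes, 0 were higher and 0 lower. Over all 500 clusters 8.2% were higher and 3.8% lower, beside 13.8% and 10.2% of the background. The background was not divided by gene content, so nothing about gene content is read from these counts. They are small and were not tested.

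The comparison of day 5 with day 0 in KO cells asks how the clusters stood in differentiation medium within 1 genotype, and it too uses no library that chose them. At day 5, 42 clusters (8.4%) were lower, beside a background of 19.1%, and 5 (1%) were higher, beside 4.35%. The median was −0.17, beside −0.09 over the background, and 388 of the 500 clusters had a value below 0, beside 14905 of the 19950 background clusters and 381 of the next 500 in rank. The next 500 in rank had 15.8% lower and 1.4% higher. The median became 0.16 where the clusters were built from KO day 5 peaks and −0.34 where they were built from KO day 0 peaks. The share called lower was 18% with the widest peaks in equal numbers, 18.6% at a gap of 1000 bp, 1.4% at 12.5 kb and 28.8% with clusters built from KO day 0 peaks. It was 4% with a pseudocount of 2000 bp, 0% with clusters built from KO day 5 peaks and 3.4% with clusters built from WT day 5 peaks. The background was not recomputed under these settings.

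The lowest value, −1.26, lay 15152 bp from Arhgef7, an exchange factor gene of the cytoskeleton, on chromosome 8 (11696092 to 11712849). It held 2619 bp in KO day 5, 2654 bp in WT day 5, 6744 bp in KO day 0 and 7382 bp in WT day 0. Hook3, a dynein adaptor gene, held 2397 bp in KO day 5, 2489 bp in WT day 5, 5896 bp in KO day 0 and 7449 bp in WT day 0 (−1.19). Yeats2, a histone acylation reader gene, held 3390 bp in KO day 5, 3160 bp in WT day 5, 8041 bp in KO day 0 and 7377 bp in WT day 0 (−1.18). In all 3, both day 5 libraries were well below both day 0 libraries.

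The cluster of Riok2 and Lix1 had a value of −0.91, the one at the ribosomal protein gene Rps29 −0.84 and the one at Mcrs1 and Fam186b −0.82. At Mcrs1 and Fam186b the covered bp were 5729 in KO day 5, 4421 in WT day 5, 10179 in KO day 0 and 11437 in WT day 0. Of the 42 clusters called lower in KO, 29 (69.0%) were also lower at day 5 in WT, and they made up 13.7% of the 212 called lower in WT. Over the background the same overlap was 65.1% of the clusters lower in KO and 29.7% of those lower in WT, so the share of the KO calls was near the background. These comparisons share no library, but WT day 0 chose the clusters.

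The 5 clusters called higher at day 5 in KO were Col18a1, Tmcc3, Lamc3 with Aif1l, Gse1 and Mypn. Col18a1, a basement membrane collagen gene, held 5693 bp in KO day 5, 5446 bp in WT day 5, 3222 bp in KO day 0 and 7568 bp in WT day 0 (0.69). KO day 0 alone was low there. Lamc3, a laminin chain gene, shared a cluster with Aif1l that held 7068 bp in KO day 5, 5930 bp in WT day 5, 4471 bp in KO day 0 and 6844 bp in WT day 0 (0.56). Tmcc3 and Gse1 were at 0.57 and 0.56, Mypn, a muscle sarcomere gene, at 0.53, and Pitpnc1, a lipid transfer gene, at 0.50, just under the limit.

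The remaining comparisons use WT day 0, and nothing is read from their direction. For KO against WT at day 0 the rule set WT high: 85 clusters (17%) were lower in KO, beside 30.0% of the background, and 0 were higher, beside 0.01%. The median was −0.28, and it was 0.08 where the clusters were built from KO day 0 peaks. The lowest values were at Col18a1 (−1.28), Lin28b (−1.26), Guca1a with 1700001C19Rik (−1.06), Gse1 (−1.03), Prrc1 (−1.03) and Ehhadh (−0.99). The highest were at Fbxo36 (0.18), Ryr1 (0.15), near Txnrd1 (0.12), at Ctnnal1 (0.10), near Lat (0.09) and at Sirt4 with Pxn (0.09). Clusters lower in KO on both days numbered 4, at Mgll, near Zswim6, at Lin28b and at Tex2. They made up 21.1% of the 19 lower at day 5 and 4.71% of the 85 lower at day 0, beside 40.9% and 13.9% over the background.

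For day 5 against day 0 in WT, 212 clusters (42.4%) were lower at day 5, beside 41.9% of the background, and 0 were higher, beside 0.01%. The median was −0.42, and it was 0.26 where the clusters were built from WT day 5 peaks. Rybp was the lowest at −2.05, followed by the clusters near Kctd3 (−1.70), near Sh3bp4 (−1.68), at Hspb8 (−1.58), near Kcmf1 (−1.48) and near Tbc1d1 (−1.48). The highest were at Twnk with Lzts2 and Pdzd7 (0.27), Spin1 (0.23), Lasp1 (0.18), Rnf126 with Fstl3 and Prss57 (0.15), Atf7ip (0.14) and the gamma-protocadherins (0.12).

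The same rule was then applied in each library on its own. Of the 500 WT day 0 clusters, 160 (32%) overlapped one of the 500 densest of KO day 5, 131 (26.2%) one of WT day 5 and 219 (43.8%) one of KO day 0. Clusters that overlapped one in all 3 other lists numbered 48, and 197 overlapped one in none. A further 91 overlapped one of KO day 0 and none of either day 5 list. These counts were not made for other clusters. The limits of the lists differed: the smallest cluster held 6953 bp in KO day 5, 5393 bp in WT day 5, 7506 bp in KO day 0 and 6837 bp in WT day 0. A cluster can thus miss a list without having lost bp. Between other lists, 34.2% of the KO day 5 list and 24.4% of the WT day 5 list overlapped that of KO day 0. Of the day 5 lists, 152 clusters of KO overlapped 153 of WT, which is 30.4% of the KO list and 30.6% of the WT list. The 48 included Ltbp4 and its neighbour Shkbp1, the gamma-protocadherins, En2, Kmt2b, Cdkn1c, 10 clusters without a protein-coding gene and 3 with tRNA genes. The overlap depended on the joining gap: with WT day 0 it was 22.6% for KO day 5, 19.2% for WT day 5 and 33.8% for KO day 0 at 1000 bp, and 63.4%, 55.8% and 73.4% in the same order at 12.5 kb.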

How the data were processed

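Per the labels' protocols, nuclei were isolated after removal of dead cells and assayed with the 10x Genomics Multiome kit. Per the file headers, peaks were called in each library on its own by cellranger-arc against an mm10 reference. Both Scanpy 1.7.2 and Cell Ranger ARC 2.0.0 are listed, with the build mm10, per the submitters' processing notes. The authors deposited 3 columns per peak, its chromosome, start and end, with no score, count or other signal. The depth per library is therefore unknown. Doublet treatment is not given in the sources used here, and no doublet caller was run on peak lists. The RNA side of the assay was not used here.

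Covered bp were summed per cluster and library. Ratios had a pseudocount of 500 bp and were scaled by total autosomal covered bp, and calls were made at 0.5 on the log2 scale. With 1 library per group no test was possible, so counts stand beside those over 19950 WT day 0 clusters of at least 3 peaks and over the next 500 in rank. The calculation was tested on simulated data. Peaks counted as shared at 1 bp of overlap, with exact Clopper-Pearson 95% intervals.

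Genes, promoters and miRNAs came from RefSeq tables of GRCm38.p6, matched by symbol and position. Of the 582 genes overlapped, 435 had a promoter entry. A genome sequence, exons and introns were not used here.

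The named loci were the first 15 clusters, the 6 highest and 6 lowest in each comparison, the 3 clusters on each side of the limit, the clusters with list genes, and those with the most peaks, span or genes; others are said to be picked after their values were seen. One locus that this rule names is not reported here. The clusters, gene lists and comparisons were chosen with earlier results of these data known. Alternatives were other gaps, numbers of clusters, pseudocounts, overlaps, scalings and libraries for building the clusters. Python 3.11.15, pandas 2.3.3, numpy 2.4.6, scipy 1.17.1 and matplotlib 3.10.9 were used.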

Additional observations from a re-analysis of the deposited data

Results flagged for a closer look

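In 2 clusters the change from day 0 to day 5 passed the limit of 0.5 in opposite directions in the 2 genotypes. At Gse1 (rank 152, chromosome 8, 120244260 to 120269352), which encodes a coiled-coil protein, the log2 ratio of day 5 to day 0 was 0.56 in KO and −1.10 in WT. Its covered bp were 7191 in KO day 5, 3622 in WT day 5, 4554 in KO day 0 and 8692 in WT day 0. At Tmcc3 (rank 398, chromosome 10, 94571669 to 94589633), which encodes a transmembrane coiled-coil protein, the ratio was 0.57 in KO and −0.71 in WT. Its covered bp were 6968 in KO day 5, 3996 in WT day 5, 4364 in KO day 0 and 7166 in WT day 0. In both clusters KO day 5 and WT day 0 were the high libraries. With 1 library per group the difference between the genotypes was not tested. WT day 0 chose the clusters, which sets that library high, and WT day 5 is the library with peaks at the Y-linked genes named above.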

How the results depend on the processing

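Values in each group below are for KO against WT at day 5, day 5 against day 0 in KO, KO against WT at day 0 and day 5 against day 0 in WT, in that order where all 4 are given. The cause of each shift was not tested. Building the clusters in either day 5 library and the other gaps for the overlap of lists were chosen after seeing the data. Ranking by number of peaks and counting peaks in place of bp left the median of KO against WT at day 5 at −0.05 and −0.06. No paired analysis was possible because each group holds 1 library.

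Shares of clusters called lower were 0.2, 0, 3.8 and 12.6% with clusters built in KO day 5, and 36.6, 3.4, 5 and 0.2% with clusters built in WT day 5. With clusters built in KO day 0 they were 28.8% (day 5 against day 0, KO), 0% (KO against WT, day 0) and 25% (day 5 against day 0, WT). Shares called higher were 21.2, 13.2, 2.6 and 5.4% in KO day 5, and 0, 5.6, 2.8 and 23.4% in WT day 5. In KO day 0 they were 0% (day 5 against day 0, KO), 9.2% (KO against WT, day 0) and 1% (day 5 against day 0, WT). The medians turned to 0.19 (KO against WT, day 5) and 0.16 (day 5 against day 0, KO) in KO day 5, to 0.26 (day 5 against day 0, WT) in WT day 5 and to 0.08 (KO against WT, day 0) in KO day 0.

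A gap of 1000 bp gave 9.8, 18.6, 32.8 and 52.4% lower, with 11.8% higher (KO against WT, day 5) and 2.8% higher (day 5 against day 0, KO). A gap of 12.5 kb gave 0, 1.4, 0.4 and 13.2% lower, 0.2% and 0% higher in the same pair, and a median of 0.02 for KO against WT at day 5. No scaling gave 0, 6, 8 and 47.2% lower, 20.4% higher and a median of 0.22 for KO against WT at day 5. A pseudocount of 2000 bp gave 2.2, 4, 11.4 and 30.6% lower, with 2.8% and 0.2% higher in the first pair. The 189571 widest peaks of each library gave 10.6, 18 and 26.8% lower in the first 3 comparisons. For KO against WT at day 5 they gave 7.6% higher, so that more clusters were lower than higher. For KO against WT at day 0, 250 clusters gave 13.6% lower, and for day 5 against day 0 in KO 1000 clusters gave 12.1% lower. Overlaps of the 500 densest lists with that of WT day 0 at gaps of 1000 bp and 12.5 kb were 22.6 and 63.4% (KO day 5), 19.2 and 55.8% (WT day 5) and 33.8 and 73.4% (KO day 0). Peaks shared with KO day 5 made up 77% when 50% of the WT day 0 peak had to overlap.

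The main limits are the single library per group, the unknown depth, the choice of clusters in WT day 0 and the scaling by total bp. Peak lists give presence, not height, so a peak that weakens without being lost is not seen.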
